A study of Rattus norvegicus with 22 samples.

Results

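Receptor tyrosine kinases are membrane proteins that bind a growth factor or a cell-surface ligand outside the cell and phosphorylate tyrosines inside it, which recruits adaptors and starts the RAS, PI3-kinase and MAPK cascades. In the developing heart, PDGF and FGF receptors act in mesenchymal and epicardial cells, ephrin receptors in cell sorting and boundaries, and TAM receptors in the clearance of dying cells. The genes described here are 40 receptors outside the ERBB and vascular groups, chosen by gene name. Of the 40, 39 were found on the array, with 59 of its 30367 probes, and Ephb4 was not found by name. Of the 39, 24 had 1 probe and 15 had several. Musk, the agrin-responsive receptor of the neuromuscular junction, was above background on 1 array and was not tested, so 38 receptors were tested among 23477 genes.

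The samples were engineered cardiac tissues, cylinders of cells in a matrix gel held at both ends, seeded with embryonic ventricle cells of Sprague Dawley rats (gestational day 14.5) and cultured for 7 days. From day 5 tissues received cyclic stretch (0.5 Hz, 5% elongation, 48 h; 7 arrays), stretch with 10 µM BIRB796 for 48 h (4 arrays), BIRB796 alone (4 arrays) or neither (control, 7 arrays). BIRB796 inhibits the p38 MAPK. The tissues hold several cell types in unknown proportions, and no label ties an array to a litter or culture, so p-values cover only the spread among these samples, which may be technical. Fewer cells of a type and less RNA per cell cannot be told apart in such bulk tissue.

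Scanning took place in 3 sessions. Stretch and control replicates 1 to 3 belong to session 1. Session 2 has stretch arrays alone (replicates 4 to 7). All arrays with BIRB796 fall in session 3, beside control replicates 4 to 7. Stretch replicates 4 and 5 differed by less than the measurement noise and were counted as 1 sample. Stretch replicate 7 was the dimmest array, and its receptor values often lay apart from the rest. All cardiomyocyte markers listed (12 of 12, Tnnt2, Myh6 and Actc1 among them) were above background in every sample. Levels are log2 processed signals on a scale where each array's 75th percentile is 0.

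The sequences of 7 of the 60-base probes, of some of the receptors described below, show what was read on the array. They are given 5′ to 3′ as on the array, with the position in build rn4 from the scanner files. The Axl probe spans chr1:80967569-80969294 (minus strand), longer than the probe itself, and its capitals mark the codons of the aspartate, phenylalanine and glycine motif of the kinase domain.
Axl: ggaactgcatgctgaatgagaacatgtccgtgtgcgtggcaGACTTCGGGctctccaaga
The capitals of the Ephb1 probe (chr8:106873258-106873317, minus strand) mark the stop codon in the frame without another stop.
Ephb1: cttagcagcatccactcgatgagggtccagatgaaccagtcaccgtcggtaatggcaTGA
The Epha8 probe (chr5:155696407-155696466, minus strand) and a probe of the full-length Ntrk2 transcript (chr17:11496095-11496154, minus strand) have no capitals.
Epha8: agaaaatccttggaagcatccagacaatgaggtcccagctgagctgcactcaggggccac
Ntrk2: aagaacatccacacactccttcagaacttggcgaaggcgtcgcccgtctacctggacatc
Probes of 3 FGF receptors show how alike this family is at the end of the kinase domain, since the capitals mark a run of 9 bases that all of them share. They lie at chr16:70870258-70870317, chr1:189488370-189488429 and chr17:15512990-15513049, all on the minus strand.
Fgfr1: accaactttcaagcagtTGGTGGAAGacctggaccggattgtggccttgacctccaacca
Fgfr2: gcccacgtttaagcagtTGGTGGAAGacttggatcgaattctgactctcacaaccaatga
Fgfr4: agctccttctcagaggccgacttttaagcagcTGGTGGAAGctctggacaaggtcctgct
For Ephb1, Ntrk2, Fgfr1 and Fgfr2 the gene's value in the fits comes from another, brighter probe of the gene.

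In the fit of all 4 groups with scan session as a term, none of the 38 receptors passed an adjusted p of 0.05 in any of the 6 comparisons (limma with Benjamini-Hochberg adjustment over all genes). The background was as low: 0% of all genes were called for stretch against control, 0% for BIRB796 against control, 0.098% for stretch with BIRB796 against control, and 0% for stretch with BIRB796 against BIRB796, for stretch with BIRB796 against stretch and for the interaction. At an unadjusted p under 0.05 the receptors numbered 1, 7, 6, 0, 2 and 1 in the same order of comparisons, of 38 each, beside 3.2%, 6.58%, 9.6%, 1.81%, 2.4% and 1.29% of all genes. Their median differences were 0.12, 0.07, 0.10, 0.03, -0.02 and -0.10 on the log2 scale, against 0.08, 0.01, 0.04, 0.01, -0.03 and -0.05 over all genes. The receptor closest to the threshold was Flt3, a receptor of early blood cells, in stretch with BIRB796 against control (adjusted p 0.0825). Its probe was above background on 0 of those 4 arrays with BIRB796, so the size of its difference could not be measured.

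**Figure D1:**
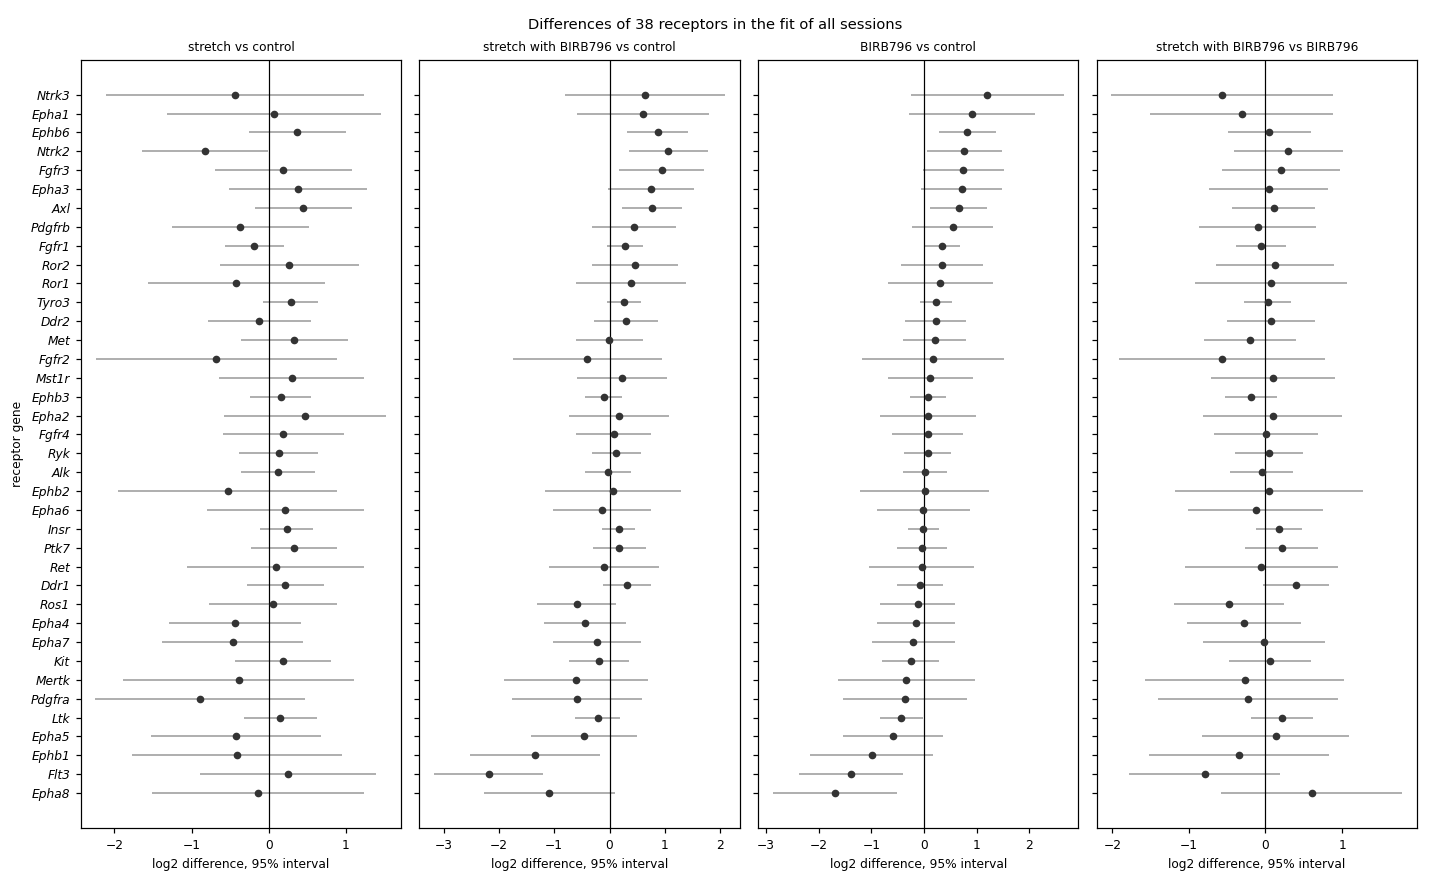
Log2 differences of the 38 tested receptors in 4 comparisons, from the fit of all sessions with a session term (points; bars are 95% intervals), ordered by BIRB796 against control. No receptor passed the adjusted threshold, and Epha8 and Flt3 have the lowest values under BIRB796. Flt3 was not above background on any array with stretch and BIRB796, so its points against control and against BIRB796 are not measured sizes.

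That fit has as many terms as there are sets of a group in a session. Where a session holds both groups, the difference is therefore that of this session, and the other sessions enter through the spread. No session holds both stretch with BIRB796 and stretch. That difference is the session 3 difference from control minus the session 1 difference from control. The interaction likewise sets a session 3 difference against one of session 1, and both assume that session effects add. The median receptor's SD within a group was 0.402 in session 1, 0.836 in session 2 and 0.243 in session 3. A fit of the shared session alone was planned as an alternative, and its receptors are described below because the fit above called none; it gives the same differences with another spread. In session 3 alone it called 3 receptors for BIRB796 against control, beside 1.96% of all genes, and 9 for stretch with BIRB796 against control, beside 7.58%. It called 0 for stretch with BIRB796 against BIRB796 (0.0469% of all genes), where 3 receptors had an unadjusted p under 0.05, beside 7.76% of all genes. In session 1 alone it called 0 for stretch against control (0% of all genes), where 1 receptor had an unadjusted p under 0.05, beside 2.86% of all genes. Without a session term 1 receptor was called for stretch against control, beside 1.26% of all genes.

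The session 3 calls did not hold when slide was added as a fixed block, a fit added after these calls were seen: 0 receptors passed in either comparison, with 2 and 21 of all genes called. Slide and group overlap in part, since slide 6 held 1 array of each group, slide 7 only control arrays, slide 8 no array with BIRB796 alone, and slide 9 no control array. With slide as a random block, 0 receptors passed for BIRB796 against control, with 57 of all genes called. For stretch with BIRB796 against control 9 receptors passed, with 1672 of all genes called. Among these 9 receptors Pdgfra was called and Flt3 was not. Single samples also moved the counts: for BIRB796 against control the count was 0 without control 4, 5 or 6, without BIRB796 1, 2 or 4 or without stretch with BIRB796 3 or 4, 1 without BIRB796 3 or stretch with BIRB796 2, and 8 without control 7. For stretch with BIRB796 against control it was 1 without control 4, 5 or 6, 2 without stretch with BIRB796 1, 5 without stretch with BIRB796 3 or 4, and 15 without control 7. The counts of all genes with a sample left out of session 3 are not given here. Such shifts can therefore not be told apart from shifts of the whole array. None of the called receptors changed direction under the alternatives run, which reuse the same arrays. The 2 comparisons share their 4 control samples, so their values are not independent.

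**Figure D2:**
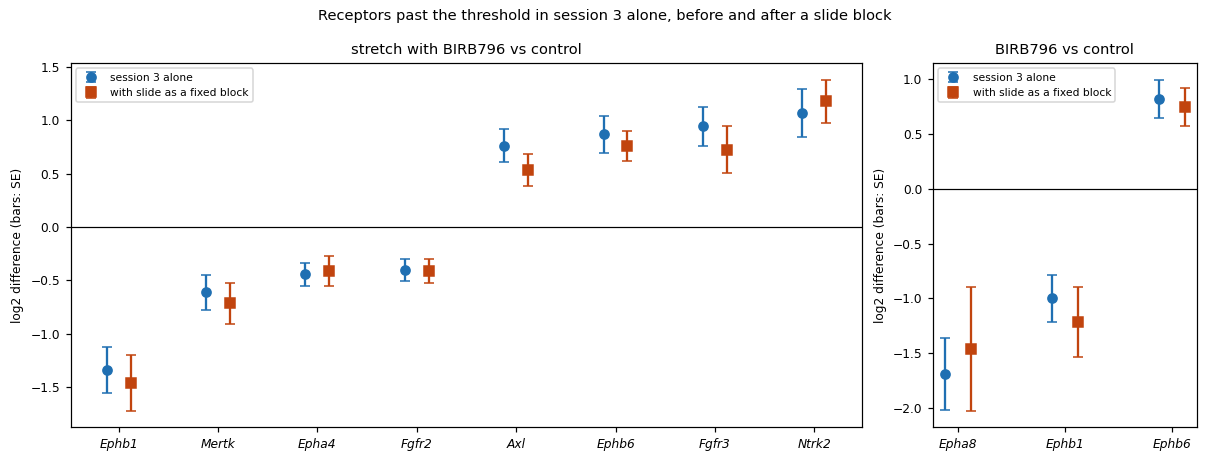
Log2 differences (bars are SE) of the receptors past the threshold in session 3 alone, without and with slide as a fixed block. Flt3 is left out of the plot because the size of its difference could not be measured. The receptors plotted keep their direction, and none passes the adjusted threshold with the block.

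Among the TAM receptors, Axl, which binds GAS6, had levels of -2.23, -2.36, -2.22 and -2.47 in tissues with stretch and BIRB796, -2.46, -2.45, -2.31 and -2.49 with BIRB796 alone, and -3.15, -3.18, -3.44 and -2.56 in session 3 controls. All samples with BIRB796 lay above all these controls, with control 7 nearest to them. Axl was 0.76 ± 0.16 higher (SE; adjusted p 0.0221 in session 3 alone, 0.295 in the fit of all sessions) with stretch and BIRB796, and 0.66 ± 0.16 higher with BIRB796 alone (adjusted p 0.0604 in session 3 alone). On slide 6 the stretch with BIRB796 array was 0.92 above the control, and on slide 8 the 2 such arrays averaged 0.27 above control 7. The other Axl probe gave 0.52 and 0.33. Mertk, which acts in the engulfment of dying cells by macrophages, averaged -4.68 ± 0.30 with stretch and BIRB796 and -4.07 ± 0.07 in control (SD, n = 4 each), a difference of -0.61 ± 0.16 (SE; adjusted p 0.0487 in session 3 alone). Tyro3, the third TAM receptor, differed by 0.26 (adjusted p 0.281).

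Axl was also the receptor with the smallest p for stretch against control when the session term was left out (1.11 ± 0.24, SE; adjusted p 0.0372). It was not called in 14 of 23 alternatives to that fit, slide as a random block and 13 single samples left out among them. Within session 1 its levels were -1.50, -1.88 and -2.37 in stretched tissues and -2.37, -2.24 and -2.48 in control. The groups overlapped there, and the difference of 0.45 ± 0.25 (SE) had an unadjusted p of 0.125. On the slides that held 1 array of each group Axl was 0.87, 0.36 and 0.11 higher in stretched tissues. Stretch samples of session 2 read -2.23, -0.69 and -1.34, with no control in that session, so stretch and session cannot be told apart there.

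**Figure D3:**
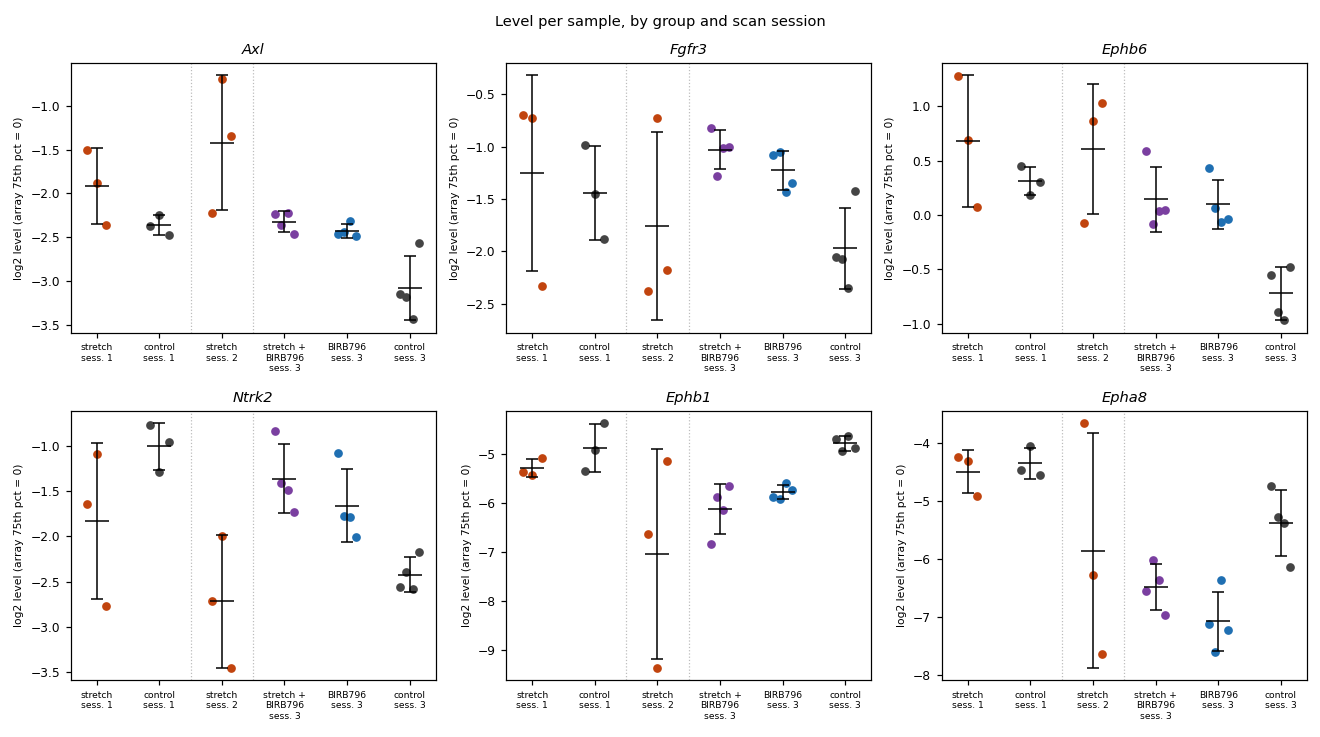
Log2 level per sample (points) with the mean and SD (bars) of 6 receptors, by group and scan session; dotted lines part the sessions. In session 3 Axl and Ephb6 lie higher, and Ephb1 lower, in all samples with BIRB796 than in the 4 controls, and Axl control 7 lies near the BIRB796 samples.

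Fgfr3, an FGF receptor known from growing cartilage, read -0.82, -1.28, -1.01 and -1.001 with stretch and BIRB796, -1.08, -1.05, -1.43 and -1.34 with BIRB796 alone, and -2.05, -2.07, -2.35 and -1.42 in control. Control 7 lay among the samples with BIRB796 alone. The differences were 0.94 ± 0.18 with stretch and BIRB796 (adjusted p 0.0194 in session 3 alone) and 0.75 ± 0.18 with BIRB796 alone (adjusted p 0.0648). Its other probe gave 0.93 and 0.83. Fgfr1, a receptor for several FGFs, read 0.89, 0.82, 0.78 and 0.74 with stretch and BIRB796, 0.85, 0.87, 0.89 and 0.88 with BIRB796 alone, and 0.41, 0.48, 0.39 and 0.81 in control. Control 7 lay among the samples with stretch and BIRB796, and neither difference (0.28 ± 0.09 and 0.35 ± 0.09, SE) passed the adjusted threshold. Fgfr2 was lower with stretch and BIRB796 (1.65, 1.89, 1.75 and 1.87) than in control (2.19, 2.23, 2.25 and 2.08), by -0.40 ± 0.10 (SE; adjusted p 0.0413 in session 3 alone). Its 4 probes disagreed there, at -0.40, -0.27, -0.27 and 0.15, so the gene's direction depends on the probe. Against BIRB796 alone Fgfr2 differed by -0.57 ± 0.10, the smallest p of that comparison (adjusted p 0.113), and it passed only with normexp and quantile scaling. Fgfr4 differed by 0.08.

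Of the neurotrophin receptors, Ntrk2, the receptor of BDNF, read -0.83, -1.41, -1.48 and -1.72 with stretch and BIRB796 against -2.56, -2.39, -2.58 and -2.17 in control, 1.06 ± 0.23 higher (SE; adjusted p 0.0239 in session 3 alone) with no overlap. With BIRB796 alone it read -1.07, -1.77, -1.78 and -2.01, a difference of 0.77 ± 0.23 (adjusted p 0.101). Its 4 probes were all higher, by 0.89 to 1.56 with stretch and BIRB796 and by 0.69 to 1.57 with BIRB796 alone. The files assign some of these probes to different transcripts and some to the same one. The levels given come from a probe assigned to another transcript than that of the probe printed above. In session 1 Ntrk2 was -0.83 ± 0.44 with stretch (SE; unadjusted p 0.104), at -0.86, 0.20 and -1.82 on the slides. In session 3 it was 0.30 ± 0.23 (SE) with stretch and BIRB796 against BIRB796 alone. The interaction estimate, the session 3 difference minus that of session 1, was 1.12 (unadjusted p 0.0427, adjusted p 1). It assumes that session effects add. Ntrk3, the receptor of NT-3, differed by 1.21 ± 0.31 with BIRB796 alone (adjusted p 0.0758). Ror1 and Ror2, receptors of WNT5A, differed by 0.38 and 0.47 with stretch and BIRB796 and passed in neither comparison.

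The ephrin receptors went both ways. Ephb6, whose kinase domain is inactive, read 0.59, -0.09, 0.04 and 0.04 with stretch and BIRB796, 0.43, 0.06, -0.06 and -0.04 with BIRB796 alone, and -0.55, -0.89, -0.97 and -0.47 in control, with no overlap. It was 0.87 ± 0.18 higher (adjusted p 0.0210) and 0.82 ± 0.18 higher (adjusted p 0.0442) in session 3 alone. Ephb1 read -6.84, -5.87, -6.13 and -5.65 with stretch and BIRB796, -5.87, -5.92, -5.60 and -5.74 with BIRB796 alone, and -4.69, -4.94, -4.63 and -4.87 in control. These levels are low, and every sample with BIRB796 lay below every control. The differences were -1.34 ± 0.21 (adjusted p 0.0120) and -0.998 ± 0.213 (adjusted p 0.0442) in session 3 alone, and the probe printed above gave -1.12 and -1.02. Epha8, also dim, read -7.12, -7.60, -6.37 and -7.22 with BIRB796 alone and -4.75, -5.28, -5.37 and -6.13 in control, a difference of -1.69 ± 0.33 (adjusted p 0.0363 in session 3 alone), and -1.09 ± 0.33 with stretch and BIRB796 (adjusted p 0.0688). On slide 8, however, the stretch with BIRB796 arrays averaged only -0.05 relative to control 7. Epha8 was above background on 3 of the 4 arrays with BIRB796 alone. Its difference with BIRB796 alone ran between -1.94 and -0.48 over 19 alternatives. Epha4 was lower with stretch and BIRB796 (-0.45 ± 0.10, adjusted p 0.0314 in session 3 alone), at -0.90, -0.58, -0.62 and -0.50 against -0.31, -0.20, -0.15 and -0.16 in control. Epha1, Epha2, Epha3, Epha5, Epha6, Epha7, Ephb2 and Ephb3 passed in neither comparison. In session 3 Epha6 was above background on 0 of 4 controls, 0 of 4 arrays with stretch and BIRB796 and 1 of 4 with BIRB796 alone. A change in Epha6 could therefore not be measured. Epha1 was above background on 3, 3 and 2 of 4 arrays in the same order.

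Flt3 was not above background on any of the 4 arrays with stretch and BIRB796, while 3 of the 4 session 3 controls were. The size of the difference could therefore not be measured. As measured, the signals differed by -2.19 (adjusted p 0.0385 in session 3 alone). With the arrays with stretch and BIRB796 held at or above the lowest level of any probe above background, their mean was 2.60-fold below control. This is not a lower limit, since a probe not above background can read higher than that level. It makes no allowance for the spread among samples, and its control mean includes the array below background. The same-slide differences below are smaller. The controls read -6.89, -5.48, -5.11 and -7.15, and the higher pair came from slide 7, which held only controls. On slides 6 and 8 the signals as measured differed by -0.91 and -0.75, and Flt3 did not pass with slide as a random block (adjusted p 0.0579) or as a fixed block (adjusted p 0.271). Pdgfra, the PDGF receptor of mesenchymal cells, read 1.97, 2.52, 2.5 and 2.42 with stretch and BIRB796, 2.24, 2.59, 2.63 and 2.87 with BIRB796 alone, and 2.97, 3.03, 3.12 and 2.65 in control. The difference with stretch and BIRB796, -0.59 ± 0.17 (SE), did not pass (adjusted p 0.0543). In session 1 Pdgfra read 0.79, 1.505 and 0.67 in stretched tissues and 1.78, 1.74 and 2.11 in control. It was the receptor with the smallest p for stretch in that session (-0.89 ± 0.27, SE; unadjusted p 0.0154, adjusted p 1). The groups did not overlap, but this was not particular to Pdgfra. In that session Tyro3, Ror2, Insr and Flt3 lay higher, and Mertk and Epha7 lower, in all stretched tissues than in all controls. The share of all genes without overlap was not counted. Pdgfrb, found on pericytes and smooth muscle cells, read 4.07, 3.56, 3.58 and 3.57 with stretch and BIRB796, 4.10, 3.94, 3.35 and 3.81 with BIRB796 alone, and 3.18, 3.28, 3.15 and 3.41 in control. A sample with BIRB796 alone, at 3.35, lay within the controls, and Pdgfrb passed neither with BIRB796 alone (0.55 ± 0.17, SE; adjusted p 0.108) nor with stretch and BIRB796 (0.44 ± 0.17, adjusted p 0.126).

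The other receptors that the naming rule takes did not pass. Ddr2, a collagen receptor of fibroblasts, read 1.56, 1.57, 1.69 and 1.58 with stretch and BIRB796 and 1.17, 1.25, 1.25 and 1.54 in control (0.30 ± 0.10, SE; adjusted p 0.0932 in session 3 alone). Insr, the insulin receptor, averaged -3.37 ± 0.07, -3.55 ± 0.18 and -3.54 ± 0.11 in stretch with BIRB796, BIRB796 and control of session 3 (SD, n = 4 each). Kit, the receptor of stem cell factor, averaged -3.18 ± 0.22, -3.24 ± 0.29 and -2.99 ± 0.08 in the same order. Met, the hepatocyte growth factor receptor, averaged -5.91 ± 0.41, -5.70 ± 0.31 and -5.91 ± 0.31. Met read higher in session 1, where stretched tissues averaged -2.24 ± 0.59 and control -2.58 ± 0.60 (SD, n = 3 each), so levels across sessions were not compared. Ddr1, Mst1r, Alk, Ltk, Ros1, Ret, Ptk7 and Ryk passed in none of the comparisons of a session. Ros1 and Ret were below background on some arrays of session 3.

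**Figure D4:**
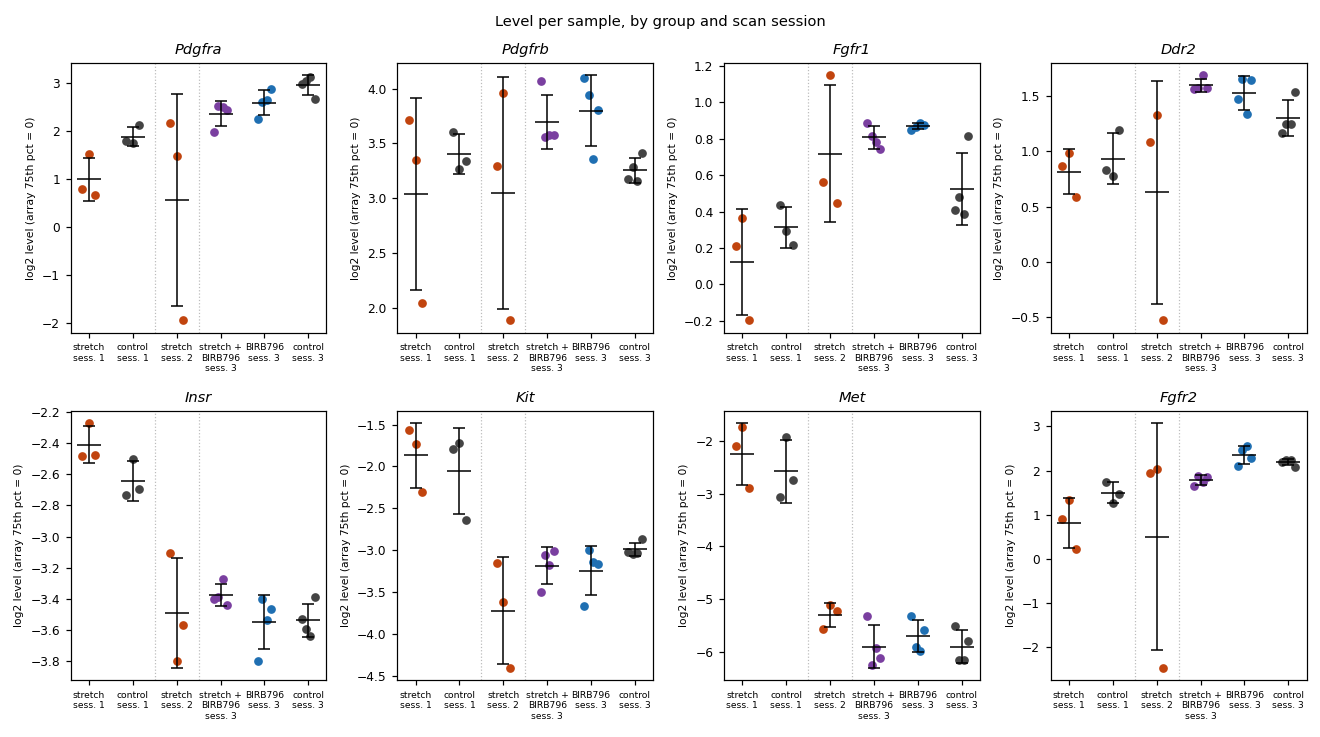
Log2 level per sample (points) with the mean and SD (bars) of 8 receptors by group and scan session. Pdgfra lies lower, and Insr higher, in stretched tissues of session 1 than in control. Met and Kit read higher in session 1 than in session 3 in control too, and stretch replicate 7 (session 2) is far below the other stretch samples for Pdgfra and Fgfr2.

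Ligands, co-receptors, adaptors and feedback genes of these receptors were counted from lists. In the fit of all sessions none of the 32 tested ligands, 12 co-receptors, 33 adaptors and kinases or 16 feedback genes and targets passed in any comparison. In session 3 alone, beside 1.96% of all genes called, 1 ligand was higher with BIRB796 alone, Bdnf, the ligand of Ntrk2 (1.01 ± 0.23, SE; adjusted p 0.0496). Of the co-receptors Sdc2, a heparan sulfate proteoglycan, was higher (1.06, adjusted p 0.0274) and Gfra1, the GDNF co-receptor of RET, lower (-1.06, adjusted p 0.0381). Errfi1, a feedback inhibitor of receptor kinases, was higher (1.12, adjusted p 0.0221). With stretch and BIRB796, where 7.58% of all genes were called, 3 ligands were lower (Artn, Fgf16 and Ntf3), Fgfrl1 and Sdc2 were higher, Gfra4 lower, Errfi1 higher and Etv5 lower. Of the 33 adaptors and kinases 1 was higher there. With slide as a fixed block only 2 of all genes were called with BIRB796 alone and 21 with stretch and BIRB796. Not all of the calls with BIRB796 alone can therefore hold with that block, and which of these genes did is not given here.

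Markers of other cells moved in the same comparisons, and their part in the receptor results was not tested. Levels of a list are the log2 of the markers' summed signal. With slide as a fixed block only 2 of all genes were called with BIRB796 alone and 21 with stretch and BIRB796. Not all of the marker calls below can therefore hold with that block. They come from session 3 alone without the block, where 7.58% of all genes were called with stretch and BIRB796. With BIRB796 alone 1.96% were called. In session 3 alone 5 of 8 smooth muscle and pericyte markers were higher with stretch and BIRB796, the list's level running between 5.89 and 6.90 in those samples and between 4.84 and 5.49 in control. With BIRB796 alone 3 of 8 were higher, at 5.95 to 6.71. Of 12 macrophage and leukocyte markers 6 were lower with stretch and BIRB796, at 7.03 to 7.26 against 7.21 to 8.10 in control. Of 10 endothelial markers 5 were lower, at 2.30 to 2.48 against 2.55 to 2.99. Of 10 epicardial and mesothelial markers 2 were lower with stretch and BIRB796 and 2 with BIRB796 alone, the list's level running between 2.63 and 3.34 and between 2.51 and 3.55, against 3.47 to 4.12 in control. The summed level of 8 neural and Schwann markers ran between 0.86 and 1.98 with stretch and BIRB796 and between 0.51 and 2.34 with BIRB796 alone, against -0.35 to 0.54 in control, with 1 marker called, lower with stretch and BIRB796. There 1 of 12 cardiomyocyte and 1 of 10 fibroblast markers were higher and 1 of 5 erythroid markers lower. In session 3 all 8 smooth muscle, all 10 endothelial and 11 or 12 of the macrophage markers were above background in each sample.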

How the data were processed

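Total RNA was read on 1-colour Agilent arrays scanned with Feature Extraction 10.7.1.1, 10.7.3.1 and 11.0.1.1 by session, per the file headers, and the deposited processed signals are intensity values. The authors' deposited table of log2 values equals them up to a per-probe baseline and was an alternative. Here log2 intensity minus each array's 75th percentile was used. The precision is set by the number of arrays. Probes had to be well above background on 4 or more arrays, and the brightest probe stood for a gene. limma 3.58.1 (R 4.3.3) was fitted to 21 samples with group and scan session, two-sided, with Benjamini-Hochberg adjustment over all genes and a threshold of 0.05. Members, lists and the session term were chosen with earlier results of these data known. By rule, values per sample were given for receptors past the threshold and 8 fixed receptors; since none passed, those called in session 3 alone were added after their values were seen. Some genes that the lists and rule take are not reported here. Alternatives changed the session term, slides, scaling, background, filter, probe and replicates, and normexp used the median spot signal instead of the planned mean. Same-numbered control and stretch arrays of session 1 share a slide, and their deviations correlated at 0.505, 0.148 and 0.569.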

Additional observations from a re-analysis of the deposited data

Results flagged for a closer look

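Of 152 sets of a receptor in a group, 17 held a sample far from the rest of its group by Dixon's ratio, where chance gives about 1 in 20 sets. Stretch replicate 7 was the sample in 8 of them: Pdgfra at -1.95, Mst1r at -7.20, Mertk at -7.99, Ror2 at -3.69, Epha2 at 4.28, Epha4 at -3.86, Epha5 at -6.60 and Epha7 at -5.03. Stretch with BIRB796 replicate 1 was the sample in 4: Pdgfra at 1.97, Pdgfrb at 4.07, Epha2 at 1.70 and Epha5 at -4.56. The others were Ddr2 at 1.69 in stretch with BIRB796 replicate 3, Ephb1 at -9.36 in stretch replicate 6, Ephb3 at 2.19 in stretch replicate 1, Ntrk3 at -3.75 in control replicate 2 and Ror1 at -0.87 in control replicate 7. These groups pool sessions for control and stretch. All values are log2 levels.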

How the results depend on the processing

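In the fit of all sessions, counts of called receptors stayed at 0 under every alternative and every sample left out, except those given here. Without a session term stretch against control gave 1. The shared session alone gave 3 for BIRB796 against control and 9 for stretch with BIRB796 against control. Leaving out single samples gave 0 to 1 for stretch with BIRB796 against control. Flt3 passed there without control 7 or without stretch 7, with 145 and 231 of all genes called. The replicate block, fitted where groups share numbers in a session, left 0 for stretch against control and 0 for stretch with BIRB796 against BIRB796. In the last comparison same-numbered arrays share a slide only for replicates 1 and 4. Deviations of the same-numbered arrays correlated there at 0.53, 0.01, 0.08 and 0.08 for replicates 1 to 4. The following settings were added after the data were seen. Counts of all genes are given above for the slide blocks of session 3. For the other settings they are not given, so those receptor counts have no background beside them. In session 3 alone, BIRB796 against control (3 receptors) gave 0 with slide as a random block, 0 with slide as a fixed block, 7 with normexp and quantile scaling, 5 with probes above background on all arrays and 1 with no filter, and 0 to 8 with a sample left out, where the highest count was without control 7. Stretch with BIRB796 against control (9) gave 0 with slide as a fixed block and 1 to 15 with a sample left out: the lowest without control 4, 5 or 6 and the highest without control 7. Stretch with BIRB796 against BIRB796 (0) gave 1 with normexp and quantile scaling, and 0 with any sample left out. Without a session term, stretch against control (1) gave 0 with slide as a random block, 2 with all 22 arrays apart and 0 to 4 with a sample left out. The 13 single receptor calls had 258 values under alternatives, of which 141 were called in the same direction, 117 were not called and 0 reversed. These alternatives reuse the same arrays, so they are not independent checks of direction, and a probe of Fgfr2 went the other way. Dim probes such as Epha8, Ephb1 and Flt3 are the least certain.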
